A study of Homo sapiens with 6 samples.

Results

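Kinesins are motor proteins that walk along microtubules on the energy of ATP. They fall broadly into motors that build, move and disassemble the mitotic spindle and motors that carry vesicles, organelles, RNA and ciliary cargo. All gene rows whose name follows the kinesin pattern (KIF or KIFC, a number and an optional letter) were taken, which gave 42 of the 60409 rows in the table. CENPE, a kinesin motor whose name lies outside this pattern, is not among them and stands with the mitotic partners below. The 42 rows were sorted by textbook role into 14 mitotic kinesins, 15 transport kinesins and 13 others (microtubule regulators, ciliary motors and atypical members). Of these, 37 had enough reads to be tested: 12 mitotic, 14 transport and 11 other. The remaining 5 are KIF2B, which had 0 counts in every library, and KIF1A, KIF4B, KIF19 and KIF25, which had at most 7 counts in any library.

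The cells were ACHN, an established human renal carcinoma line and the sole line studied, and RNA was sequenced 48 h after transfection. A negative-control siRNA (NC) was compared with siMEX3A_1 and siMEX3A_2, which are separate siRNAs against MEX3A, an RNA-binding protein with KH domains. Each of the 3 groups had 2 libraries, all transfected, and no untransfected cells were analysed here. No label tells if both libraries of one group were grown and transfected separately, so each p-value rests on library-to-library spread that could be technical.

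The libraries held between 18825750 and 19158723 counts. MEX3A itself had 93.3 and 106 normalized counts in NC, 56.6 and 65.3 with siMEX3A_1 and 73 and 76.1 with siMEX3A_2. It was called lower with siMEX3A_1 (log2 fold change -0.71, edgeR adjusted p = 0.00655) and not with siMEX3A_2 (-0.42, adjusted p = 0.0644). All 10 renal epithelial markers looked up were expressed, PAX8 among them with a mean of 15671 normalized counts in NC. Of 11 markers of other cell types, 3 were tested (CD68, COL1A1 and PDGFRB) and CD3E had 0 counts in every library. The summed renal markers ran from 79032 to 83977 normalized counts in NC and siMEX3A_2 and from 137639 to 145378 with siMEX3A_1. The summed markers of other cell types ran from 1416 to 1934 over the 6 libraries, and the part of either marker set in the kinesin results was not tested.

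Many mitotic kinesins are transcribed in a cell-cycle-dependent way, rising towards mitosis. In textbook accounts, their promoters often carry a cell cycle genes homology region (CHR, letters TTTGAA), which is bound by complexes with the MuvB core. Upstream of it there is often a CCAAT box (letters CCAAT), which is bound by NF-Y. The sequences below are shown because this promoter element is shared by most of the spindle motors whose transcripts are described afterwards. Each is 30 bases from the RefSeq promoter table on build GRCh38.p14, written 5′ to 3′ on the strand that reads TTTGAA, with those 6 letters in capitals.
KIF11: tcggcgcctcaaTTTGAAaaagagacagag
KIF14: agaaggccgcaaTTTGAAtgggcgccccgc
KIF15: gatggccgcaaaTTTGAAtttggcgcttgg
KIF18A: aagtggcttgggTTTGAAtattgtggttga
KIF18B: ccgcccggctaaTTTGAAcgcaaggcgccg
KIF20B: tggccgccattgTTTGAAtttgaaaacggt
KIF23: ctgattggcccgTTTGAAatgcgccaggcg
KIF4A: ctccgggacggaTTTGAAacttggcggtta
KIF4B: ctctgggagggaTTTGAAacttggcggtta
KIFC1: acacccgccactTTTGAAttccaacggcca
KIF5B: agtgcagtaaaaTTTGAAtctgcgaccccg

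Their locations, in the same build, were chr10:92593090-92593119 (KIF11), chr1:200620733-200620762 (KIF14), chr3:44761747-44761776 (KIF15), chr11:28108149-28108178 (KIF18A), chr17:44947754-44947783 (KIF18B), chr10:89701602-89701631 (KIF20B), chr15:69414282-69414311 (KIF23), chrX:70290058-70290087 (KIF4A), chr5:155013746-155013775 (KIF4B), chr6:33391815-33391844 (KIFC1), chr10:32056548-32056577 (KIF5B). KIF4A and KIF4B are near-identical copies of one another at the level of protein, so their sites are shown one after the other. KIF20B carried a second match 6 bases after the first. The 10 mitotic sites began between positions -55 and 25 relative to the annotated start.

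TTTGAA was found on either strand in the window from 250 bases before to 50 bases after the start in 10 of the 14 mitotic genes. It was found in 1 of the 11 transport genes with an entry, KIF5B, and in 0 of the 9 other kinesins with an entry, against 15.16% of the 35114 promoter windows in the table. A gene was counted when any of its listed windows held a match, while the background share counts single windows. The related letters TTTAAA occurred in 4 mitotic genes and 1 transport gene (12.24% of all windows), and TTCGAA in 1 mitotic and 1 other gene (1.447%). With these 3 forms together, a match was present in 13 of 14 mitotic genes, among them all 12 that were tested. It was present in 2 of 11 transport genes and 1 of 9 others, against 25.06% of all windows. KIF20A and KIF2C, a cytokinesis motor and a microtubule depolymerase, held only TTTAAA, and KIF22, a chromosome-arm motor, held TTCGAA.

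The CCAAT box occurred in 11 of 14 mitotic, 4 of 11 transport and 3 of 9 other genes, against 34.62% of all windows. In KIF11, KIF14, KIF4A and KIF4B the gap between CCAAT and the TTTGAA below it was 18 to 20 bases, in KIF18B 29 bases and in KIF18A 30 bases. The gap was 4 bases in KIF23, 45 bases in KIFC1 and 117 bases in KIF20B. The letters of E2F sites (TTTGGCGC, TTTCGCGC, TTCCCGCC or TTTCCCGC) occurred in 1 mitotic gene, 0 transport genes and 1 other kinesin, against 5.029% of all windows. The mitotic gene is KIF15, where TTTGGCGC lay next to the TTTGAA match without overlapping it. A match describes letters and not a bound site, and the files hold no binding data.

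The 100 bases before the start of KIF11, KIF4A and KIF1C are shown as picked examples. KIF11 and KIF4A have both motifs there, and KIF1C, the transport kinesin with the highest fold change, has neither. Of the other mitotic genes, only KIF18A and KIF23 have both in this window. KIF15 has TTTGAA without CCAAT. In KIF14, KIF18B, KIF20B, KIF4B and KIFC1 the TTTGAA match lies after the start, and KIF20A, KIF22, KIF2B and KIF2C have none. Among the transport genes, KIF3B and KIF5B have CCAAT there. The windows are chr10:92593030-92593129 (KIF11), chrX:70290004-70290103 (KIF4A), chr17:4997850-4997949 (KIF1C), all on the plus strand, with TTTGAA and CCAAT, or their reverse complements TTCAAA and ATTGG, in capitals.
KIF11: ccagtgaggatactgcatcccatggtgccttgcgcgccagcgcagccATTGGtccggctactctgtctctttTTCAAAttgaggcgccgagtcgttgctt
KIF4A: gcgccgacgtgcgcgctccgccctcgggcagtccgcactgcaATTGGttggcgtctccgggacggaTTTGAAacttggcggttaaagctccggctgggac
KIF1C: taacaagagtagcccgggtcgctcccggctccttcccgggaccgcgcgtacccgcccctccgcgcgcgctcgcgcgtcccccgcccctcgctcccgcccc

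**Figure D1:**
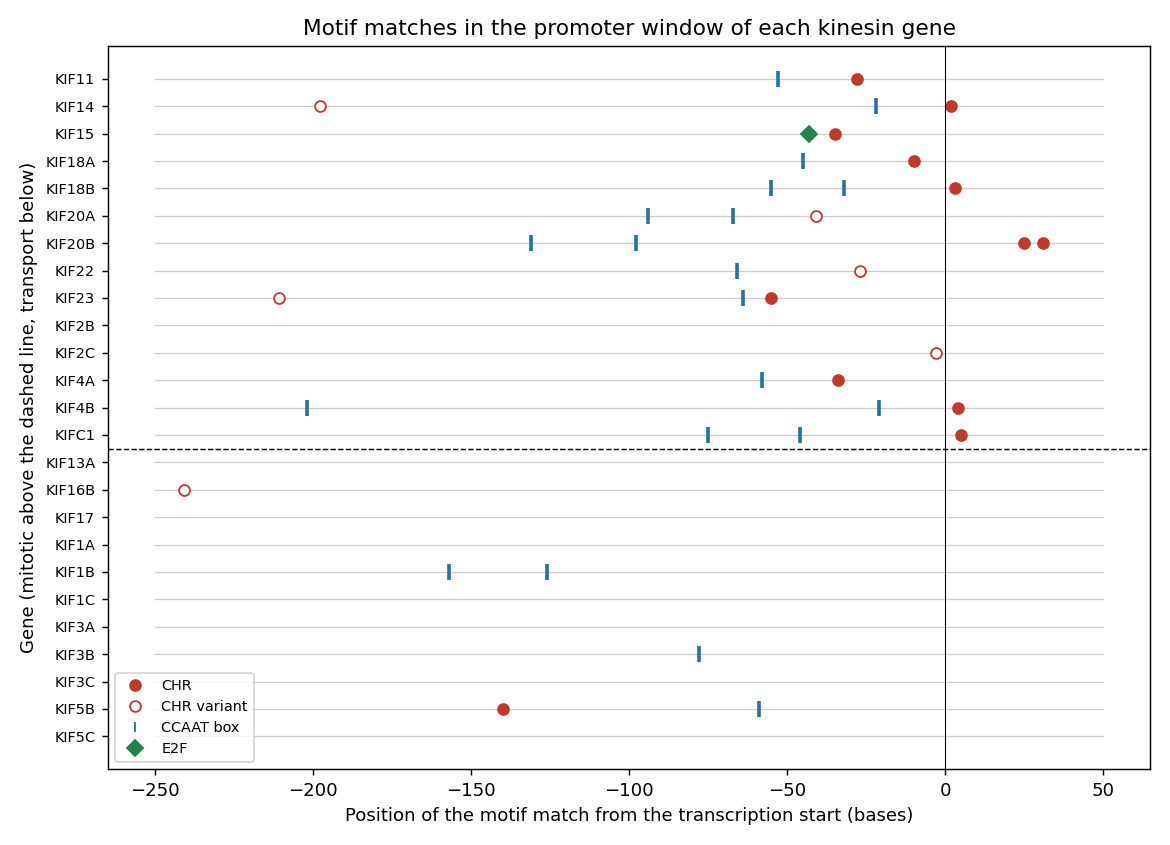
Position of each motif match, in bases from the transcription start (x axis), for the mitotic kinesins above the dashed line and the transport kinesins with an entry below it, using the first listed start of each gene. Filled circles are CHR matches (TTTGAA), open circles TTTAAA or TTCGAA, bars CCAAT and the diamond E2F letters; TTTGAA matches gather around the start in the mitotic genes and occur in 1 transport gene, KIF5B.

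With siMEX3A_1, every tested mitotic kinesin fell. All 12 were called lower by edgeR's quasi-likelihood test at a Benjamini-Hochberg adjusted p under 0.05, with 0 higher. Over all 18583 genes tested, 25.9% were called lower and 27% higher in this comparison, 52.9% in either direction. The median log2 fold change of the 12 was -2.20, beside -0.01 over all tested genes. Each of the 12 fell by at least 2-fold, where 1821 of all 18583 tested genes were called lower by that much. The class boundary matters here: KIF2A, a depolymerase of spindle poles and of neurons, was placed among the other kinesins when earlier results were known. It was not called with siMEX3A_1 (-0.03) and rose with siMEX3A_2 (0.38). The 12 calls held under all 13 alternative settings listed in the closing section.

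With siMEX3A_2 the mitotic kinesins stood closer to NC. In that comparison 8 of the 12 were called lower and 0 higher, where 25.7% of all tested genes were called lower and 25.2% higher (50.9% either way). The median was -0.45, beside 0.00 over all tested genes. In this class 1 gene, KIF22, fell by 2-fold or more, where 1400 of all 18583 tested genes were called lower by that much. In the direct comparison of the siRNAs, all 12 were lower with siMEX3A_1 than with siMEX3A_2, with a median difference of -1.70 in log2 fold change. There, 25.5% of all tested genes were lower with siMEX3A_1 and 26% higher (51.6% either way). Both siRNA groups are set against the same NC libraries, so their fold changes are not independent of each other. In bulk RNA, fewer cells in G2 and mitosis and less RNA per cell cannot be told apart.

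Among the spindle assembly motors, KIF11 (Eg5), the plus-end motor that slides antiparallel microtubules and pushes the spindle poles apart, had 2312 and 2279 normalized counts in NC. It had 477 and 505 with siMEX3A_1 and 1358 and 1462 with siMEX3A_2. The 3 groups did not overlap, and siMEX3A_2 lay between the other groups. How many of all tested genes show this order was not counted. The log2 fold changes were -2.22 (SE 0.07, edgeR adjusted p = 1.95e-08) and -0.70 (SE 0.06, adjusted p = 1.66e-05). KIF15, a spindle motor that can maintain bipolarity beside KIF11, counted 365 and 319 in NC, 82.9 and 80.6 with siMEX3A_1 and 249 and 252 with siMEX3A_2. Its log2 fold changes were -2.06 and -0.45, and the second call was lost with DESeq2 (adjusted p = 0.0638). Its span overlaps TMEM42 on the same strand, which was not called with siMEX3A_1 (0.15, edgeR adjusted p = 0.419) and was higher with siMEX3A_2 (0.67). KIFC1 (HSET), the minus-end motor that focuses spindle poles, counted 992 and 1010.3 in NC, 165 and 175 with siMEX3A_1 and 777 and 727 with siMEX3A_2. It fell to a log2 fold change of -2.56 with siMEX3A_1 and -0.41 with siMEX3A_2, again with siMEX3A_2 in between.

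Of the chromosome and kinetochore motors, KIF18B, a plus-end depolymerase that limits astral microtubules, changed most in the mitotic class with siMEX3A_1. Its counts were 1757 and 1954 in NC, 229.5 and 238 with siMEX3A_1 and 1000.3 and 929 with siMEX3A_2. This is 7.94-fold lower with siMEX3A_1 (log2 -2.99, SE 0.09) and 1.92-fold lower with siMEX3A_2 (log2 -0.94). KIF22 (Kid), which binds chromosome arms and pushes them towards the spindle equator, had 1279.9 and 1333 in NC, 384 and 391 with siMEX3A_1 and 607 and 585 with siMEX3A_2. It had the smallest gap between the siRNAs in this class, with log2 fold changes of -1.75 and -1.13 and a difference of -0.62. Its span overlaps an antisense transcript, and it is not known whether reads were counted by strand.

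The other 4 members of the mitotic class were called with siMEX3A_1 and not with siMEX3A_2. KIF18A, the kinetochore-microtubule motor that dampens chromosome oscillation, counted 810.2 and 759.7 in NC, 356 and 356 with siMEX3A_1 and 744 and 867 with siMEX3A_2, so siMEX3A_2 straddled NC. KIF20B, a cytokinesis motor, had 1413 and 1392 in NC, 495 and 504 with siMEX3A_1 and 1407 and 1474 with siMEX3A_2. KIF4A, the chromokinesin that sets the length of the central spindle, had 665 and 761 in NC, 179 and 239 with siMEX3A_1 and 765 and 761 with siMEX3A_2. In these 3 genes the siMEX3A_1 libraries stood below all others, with log2 fold changes of -1.14, -1.49 and -1.77. With siMEX3A_2 the values were 0.04, 0.04 and 0.10, with edgeR adjusted p-values of 0.731, 0.628 and 0.469. KIF2C (MCAK), the centromeric depolymerase that corrects wrong attachments, had 1108 and 969 in NC, 236 and 212 with siMEX3A_1 and 892 and 919 with siMEX3A_2. Its log2 fold change was -2.21 with siMEX3A_1. With siMEX3A_2 it was -0.20 (edgeR adjusted p = 0.0572), a value that passed the threshold under 5 of the 13 alternatives. Among these are the fit without NC replicate 2 (log2 -0.29, edgeR adjusted p = 0.0218) and that without siMEX3A_1 replicate 1 (adjusted p = 0.049).

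The motors of the central spindle and cytokinesis fell with both siRNAs, apart from KIF4A and KIF20B with siMEX3A_2. KIF23 (MKLP1), the kinesin of the centralspindlin complex, had 2006 and 1779.8 normalized counts in NC, 354 and 349 with siMEX3A_1 and 1186 and 1219.7 with siMEX3A_2. Its log2 fold changes were -2.43 (SE 0.08) and -0.65 (SE 0.07). KIF20A (MKLP2), which brings Aurora B to the central spindle, counted 950.2 and 891 in NC, 199 and 204 with siMEX3A_1 and 648 and 695 with siMEX3A_2. KIF14, which recruits citron kinase to the midbody, counted 1355 and 1085 in NC, 242 and 251 with siMEX3A_1 and 788 and 764 with siMEX3A_2. The log2 fold changes of KIF20A were -2.19 and -0.46, and those of KIF14 were -2.31 and -0.65. In KIF23, KIF20A and KIF14 no library of one group overlapped those of another, which was likewise not counted over all tested genes. KIF20A shares its span with CDC23 and BRD8, KIF18A with METTL15 and KIF4A with PDZD11, all on the opposite strand. Reads could be split between these genes.

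The pair of mitotic members that was not tested added little. KIF4B had 2 and 5 counts in NC, 0 and 1 with siMEX3A_1 and 0 and 0 with siMEX3A_2. Since it is a near-identical copy of KIF4A, the way reads were split between them is uncertain. KIF2B, a relative of KIF2A and KIF2C, had 0 counts in all 6 libraries.

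**Figure D2:**
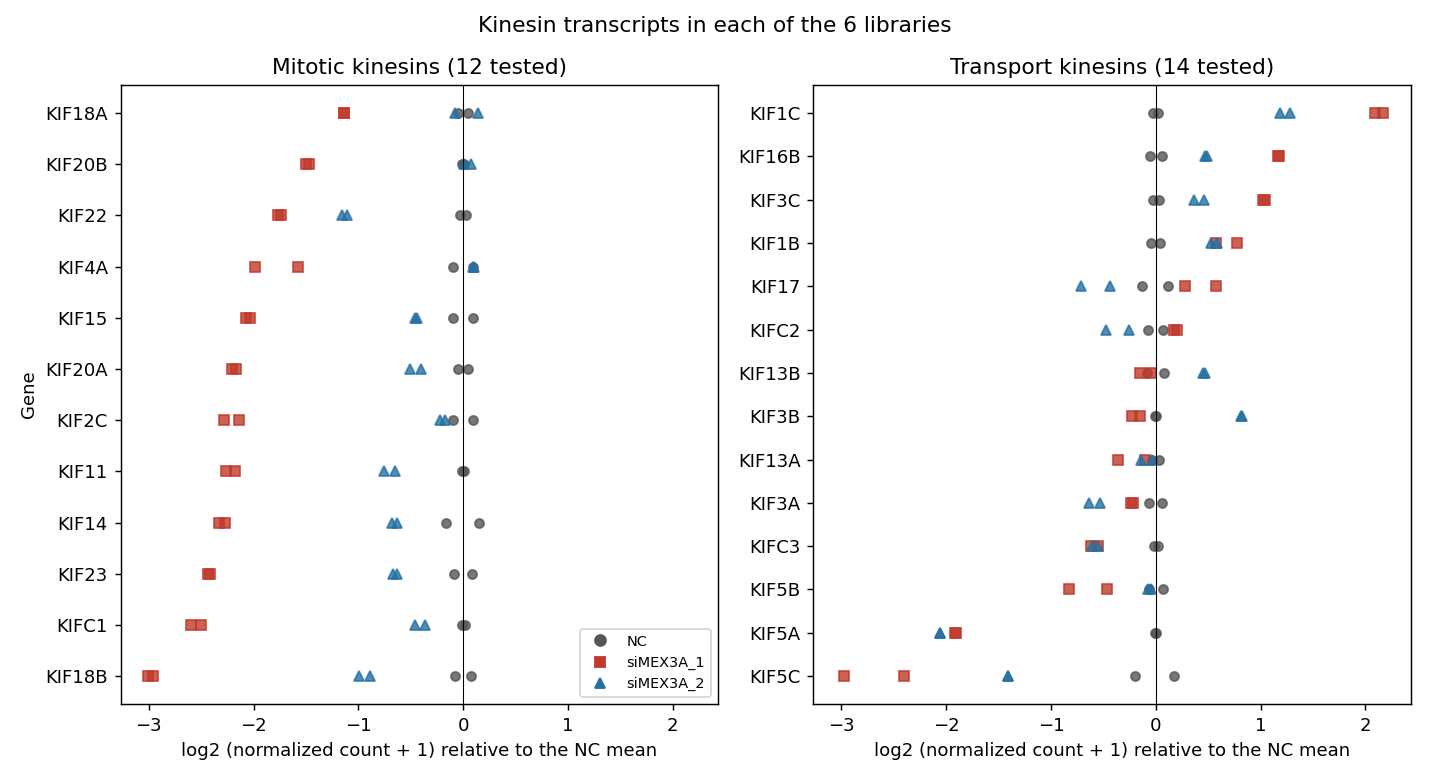
Each point is 1 library, and the x axis is log2 of the normalized count plus 1, relative to the mean of the 2 NC libraries. The 12 tested mitotic kinesins are on the left, with both siMEX3A_1 libraries left of the other 4 libraries in every row. Of all tested genes, 25.9% were called lower with siMEX3A_1, and how many are separated in this way was not counted. The 14 tested transport kinesins on the right spread to both sides of 0.

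The transport kinesins moved in both directions. With siMEX3A_1, 6 of the 14 tested were called lower and 4 higher, with a median log2 fold change of -0.14. With siMEX3A_2, 6 were lower and 6 higher, with a median of -0.07. The number called, 10 of 14 and 12 of 14, stands beside 52.9% and 50.9% of all tested genes. By direction, 25.9% of all tested genes were lower and 27% higher with siMEX3A_1, and 25.7% and 25.2% with siMEX3A_2. In the direct comparison 4 were lower with siMEX3A_1, 6 were higher and 4 were not called, with a median difference of 0.14. There, 25.5% of all tested genes were lower with siMEX3A_1 and 26% higher (51.6% either way). Leaving out NC replicate 2 or siMEX3A_2 replicate 2 cut the number lower with siMEX3A_2 from 6 to 3 by the same edgeR test.

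KIF1C, a kinesin-3 motor that carries vesicles and messenger RNA to the cell periphery, rose most. Its counts were 1531 and 1479 in NC, 6784 and 6401 with siMEX3A_1 and 3658 and 3429 with siMEX3A_2, so the 3 groups were far apart. This is 4.38-fold higher with siMEX3A_1 (log2 2.13, SE 0.06, edgeR adjusted p = 1.17e-08) and 2.35-fold higher with siMEX3A_2 (log2 1.24, SE 0.06, adjusted p = 4.39e-07). KIF16B, a kinesin-3 motor of early endosomes, counted 264 and 244 in NC, 572 and 576 with siMEX3A_1 and 353 and 356 with siMEX3A_2. KIF1B, which carries mitochondria and synaptic vesicle precursors, counted 735 and 689 in NC, 1058 and 1223 with siMEX3A_1 and 1025 and 1067 with siMEX3A_2. Both rose with both siRNAs, by 1.18 and 0.48 for KIF16B and by 0.68 and 0.56 for KIF1B on the log2 scale. For KIF1B the siRNA groups overlapped and their difference was 0.12 (edgeR adjusted p = 0.227). That difference passed the threshold without siMEX3A_1 replicate 1 (0.23, adjusted p = 0.0277).

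Among the remaining kinesin-3 motors, KIF13A, which carries recycling endosomes, had 1189.5 and 1133 in NC, 905 and 1080.4 with siMEX3A_1 and 1055 and 1132 with siMEX3A_2, and was called in none of the 3 comparisons. Without siMEX3A_1 replicate 2 it was called lower against NC (log2 -0.35, edgeR adjusted p = 0.00675) and against siMEX3A_2 (-0.27, adjusted p = 0.0285). KIF13B, a carrier of membrane scaffold and receptor cargo, counted 928 and 828 in NC, 792 and 849.9 with siMEX3A_1 and 1198 and 1214 with siMEX3A_2. Here only the siMEX3A_2 libraries stood apart, with a log2 fold change of 0.46 against -0.10 for siMEX3A_1. KIF1A, a neuronal kinesin-3, was too low to test, with 7 counts in each NC library, 1 and 3 with siMEX3A_1 and 0 in both siMEX3A_2 libraries. Its NC to siRNA ratio was 3.39 with siMEX3A_1 (95% exact interval 1.06 to 14.1, counting error only). With siMEX3A_2 it was at least 4.59-fold lower against a floor of 3 counts over the group. The exact lower limit was 3.26, again for counting error only.

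The kinesin-2 motors, which drive anterograde transport in cilia, did not move together. KIF3A and KIF3B form the motor pair of heterotrimeric kinesin-2. KIF3A counted 550.1 and 502 in NC, 452 and 446 with siMEX3A_1 and 339 and 364 with siMEX3A_2. KIF3B counted 1237 and 1229.8 in NC, 1054 and 1111 with siMEX3A_1 and 2177 and 2174 with siMEX3A_2. KIF3A fell under siMEX3A_2 (-0.58, edgeR adjusted p = 0.00022) while KIF3B rose (0.82, adjusted p = 4.37e-06). With siMEX3A_1 both were slightly lower, at -0.23 and -0.19, with edgeR adjusted p-values of 0.0322 and 0.0272. These 2 calls were fragile, and each was kept under only 5 of the 13 alternatives. KIF3A lost its call without NC replicate 1 (-0.15), either siMEX3A_1 library or either siMEX3A_2 library, with edgeR adjusted p-values from 0.0567 to 0.219. KIF3B lost its call without either NC library, siMEX3A_1 replicate 1 or either siMEX3A_2 library, with edgeR adjusted p-values from 0.0635 to 0.160. The difference of KIF3A between the siRNAs, 0.35, also lost its call without siMEX3A_2 replicate 1 (0.31, edgeR adjusted p = 0.0511).

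KIF3C, which can pair with KIF3A, rose with both siRNAs. Its counts were 585 and 609 in NC, 1231 and 1215 with siMEX3A_1 and 820.2 and 767 with siMEX3A_2, which gave log2 fold changes of 1.03 and 0.41. KIF17, the homodimeric kinesin-2 of dendrites and cilia, was low, with 75.5 and 63.4 normalized counts in NC, 104 and 84.7 with siMEX3A_1 and 51 and 42.1 with siMEX3A_2. It fell with siMEX3A_2 (-0.58, edgeR adjusted p = 0.0464), had a value of 0.44 with siMEX3A_1 (adjusted p = 0.0848), and differed between the siRNAs by 1.02 (adjusted p = 0.00229). Its fall was called under 6 of the 13 alternatives. The call with siMEX3A_2 was lost without either NC library or either siMEX3A_2 library, with edgeR adjusted p-values from 0.0584 to 0.224.

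All 3 conventional kinesin heavy chains of the kinesin-1 family were lower with siMEX3A_1. KIF5B, the form made in most tissues, counted 4204 and 3829.7 in NC, 2269 and 2913 with siMEX3A_1 and 3808 and 3895 with siMEX3A_2. It fell by 0.63 on the log2 scale with siMEX3A_1 (edgeR adjusted p = 0.000545), and with siMEX3A_2 the value was -0.06 (adjusted p = 0.655). The neuronal forms were low: KIF5A had 44.7 and 44.9 in NC, 11.1 and 11.2 with siMEX3A_1 and 10 and 10 with siMEX3A_2. It fell with both siRNAs, at -1.99 (SE 0.32) and -2.15 (SE 0.32), and the difference between the siRNAs was 0.16 (SE 0.38, edgeR adjusted p = 0.793). KIF5C had 26.8 and 35.1 in NC, 5.06 and 3.06 with siMEX3A_1 and 11 and 11 with siMEX3A_2, again with both siRNA groups below NC. Its log2 fold changes were -2.89 (SE 0.45) and -1.48 (SE 0.38). Of the 12 alternatives in which KIF5C was tested, 8 kept the siMEX3A_2 call and 2 kept a call between the siRNAs. The siMEX3A_2 call (edgeR adjusted p = 0.00948) was lost without NC replicate 2 (adjusted p = 0.0886), siMEX3A_2 replicate 1 (0.058) or siMEX3A_2 replicate 2 (0.0591). The difference between the siRNAs, -1.41 (edgeR adjusted p = 0.0444), was lost when any 1 of the 6 libraries was left out, with adjusted p-values from 0.0681 to 0.205.

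The minus-end directed members of the transport class are C-terminal motors. KIFC3, which acts in apical transport and at cell junctions of epithelia, counted 3574 and 3671 in NC, 2466 and 2361 with siMEX3A_1 and 2474 and 2378 with siMEX3A_2. It fell with both, at -0.59 and -0.58 (SE 0.06 for each), and the difference between them was -0.01 (SE 0.06, edgeR adjusted p = 0.928). KIFC2, known mainly from neurons, counted 541 and 599.8 in NC, 657 and 642 with siMEX3A_1 and 479 and 409.6 with siMEX3A_2. Its value was 0.19 with siMEX3A_1 (edgeR adjusted p = 0.1) and it fell with siMEX3A_2 (-0.36, adjusted p = 0.00786). That call was lost without NC replicate 2 (edgeR adjusted p = 0.0717) or without siMEX3A_2 replicate 2 (adjusted p = 0.106).

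**Figure D3:**
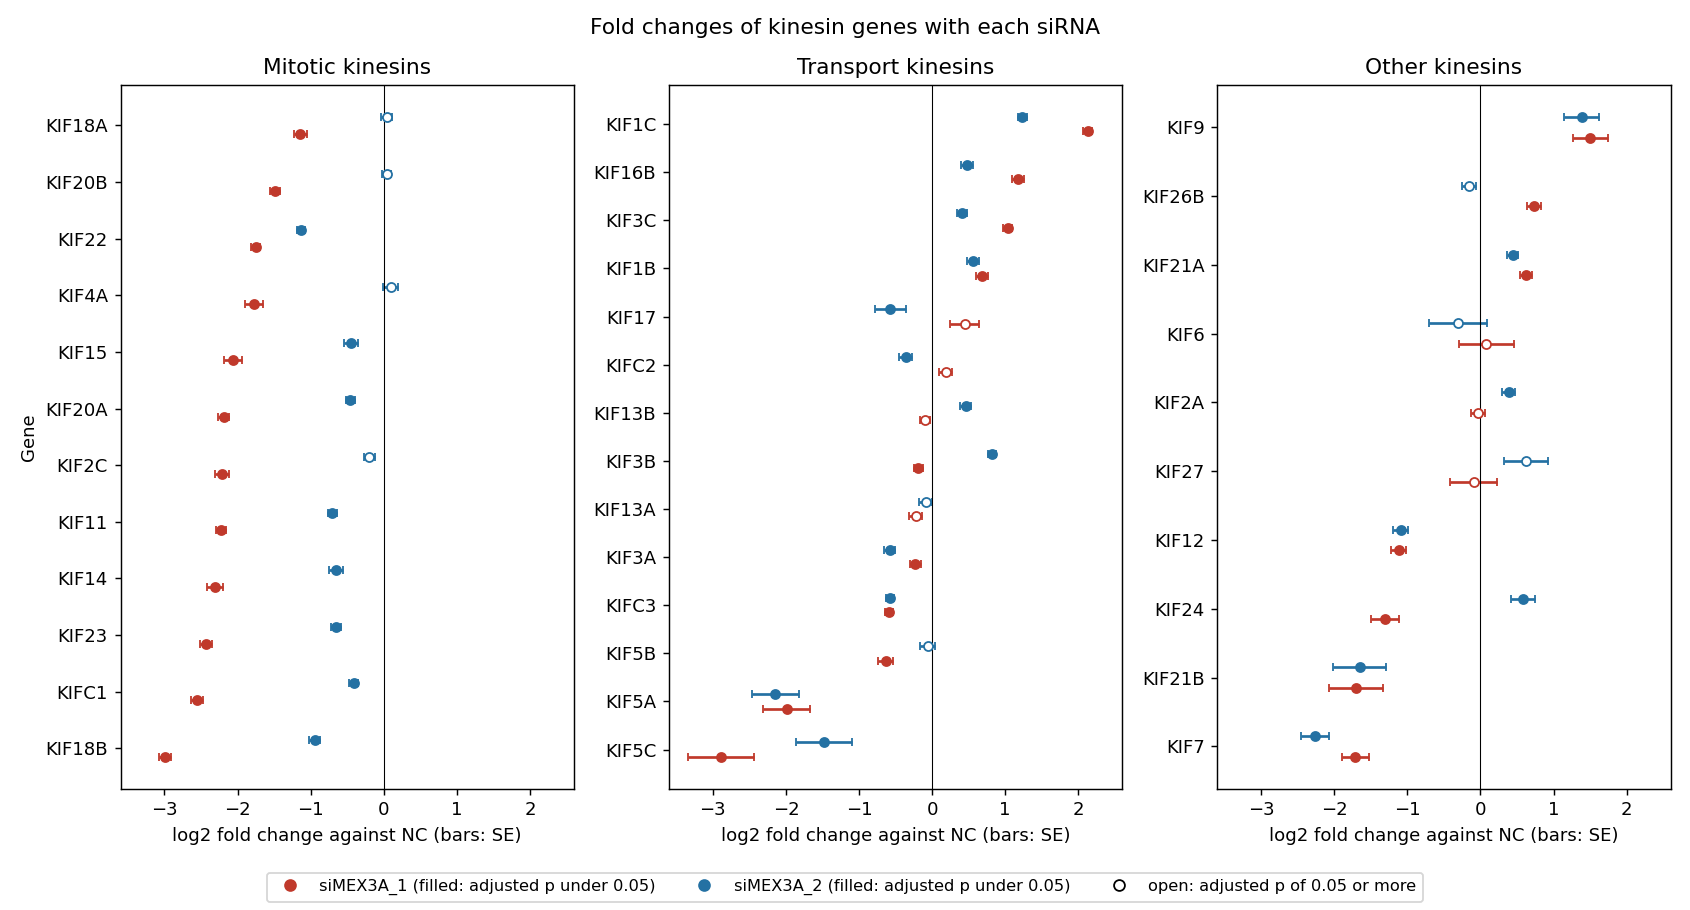
Fold changes of the tested kinesins against NC on the log2 scale (x axis) with their standard errors, siMEX3A_1 in red and siMEX3A_2 in blue; filled points passed the test (edgeR adjusted p under 0.05). All 12 red points of the mitotic panel lie below -1, while the transport and other panels hold points on both sides of 0; KIF26A, with 0 counts in both siMEX3A_1 libraries, is not drawn.

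Among the 11 other kinesins tested, 5 were lower and 3 higher with siMEX3A_1, and 4 were lower and 4 higher with siMEX3A_2. Over all tested genes these shares were 25.9% and 27% with siMEX3A_1, and 25.7% and 25.2% with siMEX3A_2. The medians of the 11 were -0.09 and -0.16. The counts include KIF26A, which passed the filter on low counts through NC alone. Of the other 10 genes, 4 were lower and 3 higher with siMEX3A_1, and 3 were lower and 4 higher with siMEX3A_2, with medians of -0.06 and 0.11, so the second median changes sign. Between the siRNAs, 2 were lower with siMEX3A_1, 1 was higher and 8 were not called (25.5% and 26% of all tested genes). Without siMEX3A_1 replicate 1 the number higher between the siRNAs was 3 by the edgeR test, with KIF7 and KIF21A added. Without NC replicate 2 the number higher with siMEX3A_2 went from 4 to 2, with KIF2A and KIF24 lost.

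Of KIF7 and its relative KIF27, only KIF7 was called against NC. KIF7, which organises the cilium tip in Hedgehog signalling, had 172 and 175 normalized counts in NC, 45.5 and 60.2 with siMEX3A_1 and 39 and 33 with siMEX3A_2. It fell with both siRNAs, at -1.71 (SE 0.18) and -2.26 (SE 0.19), and the difference was 0.55 (edgeR adjusted p = 0.0574; without siMEX3A_1 replicate 1, 0.75 and 0.0258). Its span overlaps TICRR on the opposite strand, which fell by 3.32 with siMEX3A_1 and by 0.35 with siMEX3A_2 on the log2 scale. The part of TICRR reads in the KIF7 values was not tested. KIF27, known from motile cilia, had 68.5 and 58.5 in NC, 36.4 and 82.6 with siMEX3A_1 and 92 and 103 with siMEX3A_2. Its siMEX3A_1 libraries lay on both sides of NC, and it was called in none of the 3 comparisons. Without siMEX3A_1 replicate 2 it was called lower with siMEX3A_1 (-0.79, edgeR adjusted p = 0.0305) and lower than with siMEX3A_2 (-1.41, adjusted p = 0.000942). Without siMEX3A_1 replicate 1 or replicate 2 it was called higher with siMEX3A_2 (0.62, edgeR adjusted p = 0.0159 and 0.017).

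KIF9, a motor of motile cilia and flagella, had 23.8 and 20.5 in NC, 58.6 and 67.3 with siMEX3A_1 and 62 and 54.1 with siMEX3A_2. It rose with both siRNAs, by 1.50 and 1.39 on the log2 scale. KIF9-AS1 on the opposite strand rose with siMEX3A_1 (1.22, edgeR adjusted p = 0.00497) and had a value of 0.13 with siMEX3A_2. KLHL18, also on the opposite strand, rose with both siRNAs, by 0.82 (edgeR adjusted p = 4.37e-05) and 0.60 (adjusted p = 0.000432). The KIF9 values are uncertain if reads were split among these genes. KIF6, also of motile cilia, had 22.8 and 15.6 in NC, 16.2 and 24.5 with siMEX3A_1 and 15 and 16 with siMEX3A_2. It had values of 0.08 and -0.31 on the log2 scale and was not called. KIF24, a centriolar kinesin that restrains cilium formation, had 156 and 121 in NC, 57.6 and 54.1 with siMEX3A_1 and 229 and 185 with siMEX3A_2. Its span overlaps UBAP1 on the opposite strand, which was higher with both siRNAs (0.24 and 0.44 on the log2 scale). The part of UBAP1 reads in the KIF24 values was not tested. KIF24 fell with siMEX3A_1 (-1.31) and rose with siMEX3A_2 (0.58), a difference of -1.89 (SE 0.18, edgeR adjusted p = 1.95e-05). Its rise was called under 10 of the 13 alternatives. The rise was lost without NC replicate 2 (0.41, edgeR adjusted p = 0.105) or siMEX3A_2 replicate 1 (0.42, adjusted p = 0.123).

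The microtubule regulators KIF21A and KIF21B, which act on microtubule growth, moved in opposite directions. KIF21A counted 2718 and 2692 in NC, 3818 and 4510.4 with siMEX3A_1 and 3637 and 3719 with siMEX3A_2, and KIF21B counted 30.8 and 39 in NC, 11.1 and 10.2 with siMEX3A_1 and 13 and 9.01 with siMEX3A_2. KIF21A rose by 0.62 and 0.44, and KIF21B had log2 fold changes of -1.70 and -1.65 with SE values of 0.37 and 0.36. Between the siRNAs KIF21A differed by 0.18 (edgeR adjusted p = 0.073), and by 0.30 without siMEX3A_1 replicate 1 (adjusted p = 0.00248). KIF2A, the depolymerase of spindle poles and of neurons, a relative of KIF2C, counted 1119 and 965 in NC, 940.4 and 1096 with siMEX3A_1 and 1317 and 1403 with siMEX3A_2. Its value was -0.03 with siMEX3A_1, where KIF2C fell by 2.21, and it rose with siMEX3A_2 (0.38, edgeR adjusted p = 0.00706). That rise was lost without NC replicate 2 (0.28, edgeR adjusted p = 0.07) or siMEX3A_2 replicate 2 (0.35, adjusted p = 0.0592). The span of KIF2A overlaps DIMT1 and IPO11, so its values are uncertain in the same way.

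KIF12, a kinesin of kidney and liver epithelia, had 583 and 627 in NC, 308 and 250.0 with siMEX3A_1 and 276 and 291 with siMEX3A_2. It fell with both, at -1.12 and -1.09, a difference of -0.02 (SE 0.11, edgeR adjusted p = 0.885). KIF26B, an atypical member needed in kidney development, counted 302 and 265 in NC, 460.1 and 482 with siMEX3A_1 and 246 and 262 with siMEX3A_2, and rose with siMEX3A_1 only (0.73, and -0.16 with siMEX3A_2), with a tested difference of 0.89 (edgeR adjusted p = 2.93e-05). Its relative KIF26A had 26 and 16 counts in NC, 0 and 0 with siMEX3A_1 and 2 and 1 with siMEX3A_2. KIF26A passed the filter on low counts through NC alone, so its ratios describe a gene kept for its NC counts. Against a floor of 3 counts over the group it was at least 13.6-fold lower with siMEX3A_1. The exact 95% lower limit of that ratio was 10.6, for counting error only. With siMEX3A_2 the NC to siRNA ratio was 13.8, with a 95% exact interval of 4.40 to 69.4 that covers counting error only. KIF19, a depolymerase of motile cilia, had 0 to 4 counts and KIF25 0 to 3 counts per library, and neither was tested.

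The classes also differ as sums. Added up over the class, mitotic kinesins took 793 and 767 CPM (TMM-scaled) in NC. They took 179 and 185 CPM under siMEX3A_1 and 550.2 and 562 CPM under siMEX3A_2. The sum was 4.28-fold lower with siMEX3A_1 and 1.40-fold lower with siMEX3A_2. Transport kinesins took 818 and 789.9 CPM in NC, 969 and 999 with siMEX3A_1 and 922 and 910.5 with siMEX3A_2. As a share of the counts of all 42 members, the mitotic class went from 42.0% and 42.1% in NC to 12.4% and 12.1% with siMEX3A_1. With siMEX3A_2 it was 30.8% and 31.4%. These sums are weighted towards long and abundant transcripts and carry no test. The transport sum depends on single genes. Without KIF1C, left out after its values were seen, the transport sum was 737 and 712 in NC, 611 and 661 with siMEX3A_1 and 728 and 729 with siMEX3A_2. Without KIF5B, left out in the same way, it was 596 and 588 in NC, 849 and 845 with siMEX3A_1 and 721 and 705 with siMEX3A_2.

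**Figure D4:**
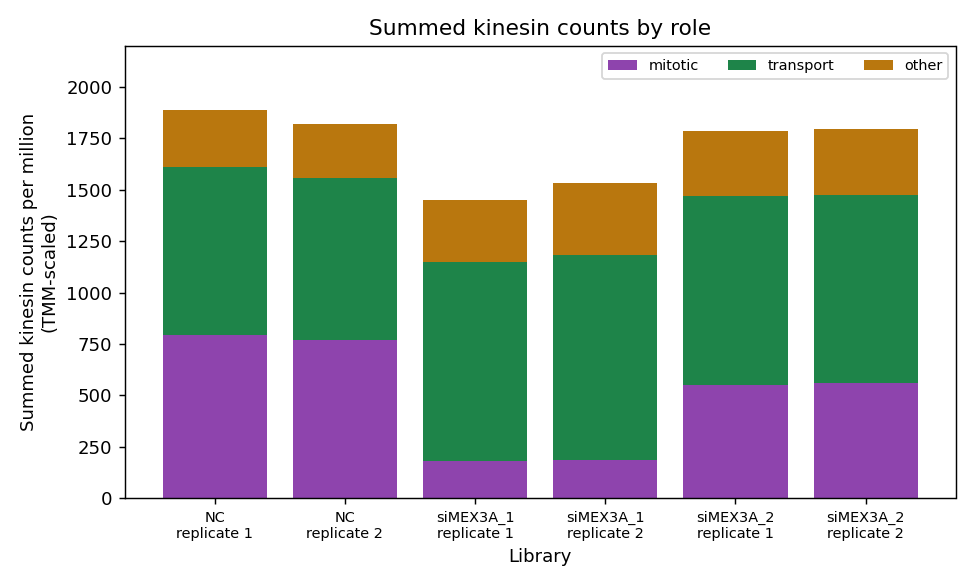
Kinesin counts as CPM (TMM-scaled) summed by role in each of the 6 libraries. The mitotic layer at the bottom runs from 767 to 793 in NC, from 179 to 185 with siMEX3A_1 and from 550.2 to 562 with siMEX3A_2.

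The proteins that kinesins work with were described from 4 lists. The list of mitotic partners also holds CENPE, itself a kinesin motor whose name lies outside the kinesin pattern. Its log2 fold changes were -1.39 with siMEX3A_1 and -0.31 with siMEX3A_2, both called lower. Of 28 mitotic partners (spindle, central spindle and kinetochore proteins), 26 fell with siMEX3A_1, 0 rose and 2 were not called, with a median log2 fold change of -1.54. Those 2, named after their values were seen, were the spindle pole protein NUMA1 and the microtubule end protein MAPRE2. With siMEX3A_2, 16 fell, 1 rose and 11 were not called, with a median of -0.30. Between the siRNAs, 26 were lower with siMEX3A_1. Of all tested genes, 25.9%, 25.7% and 25.5% were called lower in these 3 comparisons, and 27%, 25.2% and 26% higher. PRC1, the antiparallel bundler that binds KIF4A, counted 2446 and 2499.5 in NC, 319.5 and 344 with siMEX3A_1 and 2056 and 1976 with siMEX3A_2. Its log2 fold changes were -2.90 and -0.29. ANLN, a scaffold of the cleavage furrow, and NUSAP1, a spindle microtubule bundler, had values of -2.52 and -2.23 with siMEX3A_1 and -0.34 and -0.32 with siMEX3A_2. SPAG5 (astrin), which secures kinetochore attachments, fell by 2.13 and 1.23, and AURKA, the spindle pole kinase, fell by 2.03 and 0.56 on the log2 scale. HMMR, a spindle pole protein, was the 1 partner that rose with siMEX3A_2. It counted 1048 and 1086 in NC, 203 and 205 with siMEX3A_1 and 1491 and 1548 with siMEX3A_2, a log2 fold change of -2.39 with siMEX3A_1 and 0.51 with siMEX3A_2 (edgeR adjusted p = 7.53e-05).

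Of 22 kinesin light chains and cargo adaptors, 5 fell and 11 rose with siMEX3A_1 (median 0.26), and 10 fell and 9 rose with siMEX3A_2 (median -0.09). Beside these stand 25.9% lower and 27% higher among all tested genes with siMEX3A_1, and 25.7% and 25.2% with siMEX3A_2. The 5 that fell with siMEX3A_1, named after their values were seen, were TRAK1, RHOT1, MAPK8IP2, HAP1 and APBA1, of which TRAK1 and RHOT1 link mitochondria to kinesin-1. PLEKHM2 (SKIP), which links lysosomes to kinesin-1, counted 841 and 860.2 in NC, 1828 and 1707 with siMEX3A_1 and 1939 and 1863 with siMEX3A_2. SPAG9 (JIP4), a scaffold that binds kinesin-1 and dynein, counted 2859 and 2679.9 in NC, 4679 and 5082 with siMEX3A_1 and 4743 and 4716 with siMEX3A_2. Both rose with both siRNAs, by 1.06 and 1.16 and by 0.82 and 0.77 on the log2 scale. MAPK8IP3 (JIP3), the related scaffold, rose by 1.01 with siMEX3A_1 and 0.30 with siMEX3A_2. KLC2, a kinesin-1 light chain, moved in opposite directions. It counted 506 and 529 in NC, 863 and 786 with siMEX3A_1 and 388 and 361 with siMEX3A_2, giving log2 fold changes of 0.67 and -0.47. MAPK8IP1 (JIP1) counted 108 and 76.1 in NC, 120.3 and 135 with siMEX3A_1 and 20 and 18 with siMEX3A_2. It fell with siMEX3A_2 (-2.27, edgeR adjusted p = 5.54e-05), and its value with siMEX3A_1 was 0.47 (adjusted p = 0.0681).

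Cytoplasmic dynein and dynactin, the minus-end motor and its activator, differed by less than 2-fold in every tested gene and in all 3 comparisons. Of 29 tested genes of 30 in the list, 7 fell and 13 rose with siMEX3A_1 (median 0.16), and 7 fell and 14 rose with siMEX3A_2 (median 0.18). The share that fell is near that of all tested genes, 25.9% with siMEX3A_1 and 25.7% with siMEX3A_2, and the shares called higher over all tested genes were 27% and 25.2%. NDE1, a dynein regulator that also acts at mitosis, fell by 0.97 and 0.32, and DYNLL1, a light chain, by 0.78 and 0.31. PAFAH1B1 (LIS1), a dynein activator, rose by 0.67 and 0.48. DCTN5, a dynactin subunit, rose with siMEX3A_2 (0.92), with a value of 0.11 with siMEX3A_1 (edgeR adjusted p = 0.222). The intermediate chain DYNC1I2 rose by 0.37 and 0.73, and the light chain DYNLT3 by 0.33 and 0.73. DCTN1, DYNLL2 and ACTR1A, the large dynactin subunit, a light chain and an actin-related subunit, fell with siMEX3A_1 (-0.32, -0.39 and -0.51) and rose with siMEX3A_2 (0.41, 0.35 and 0.18). Each of these 3 differed between the siRNAs, by -0.74, -0.74 and -0.69.

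Of the 25 intraflagellar transport genes, the ciliary trains that kinesin-2 pulls, 7 fell and 15 rose with siMEX3A_1 (median 0.34), and 11 fell and 8 rose with siMEX3A_2 (median -0.10). All tested genes were called lower in 25.9% and 25.7% of cases and higher in 27% and 25.2%, which is near the share of this list that fell with siMEX3A_1 and that rose with siMEX3A_2. IFT27, a small GTPase of the IFT-B complex, counted 275 and 279 in NC, 865 and 796 with siMEX3A_1 and 761 and 772 with siMEX3A_2. It rose by 1.58 and 1.47 on the log2 scale. DYNC2H1, the dynein heavy chain of the return trip, counted 636 and 648 in NC, 245 and 311 with siMEX3A_1 and 382 and 358 with siMEX3A_2, giving log2 fold changes of -1.21 and -0.79. IFT22 rose with siMEX3A_1 (0.69; -0.02 with siMEX3A_2), as did IFT140 of the IFT-A complex (0.65; -0.10). TTC26 fell with siMEX3A_2 (-0.73; -0.18 with siMEX3A_1). IFT122, also of IFT-A, rose by 0.47 with siMEX3A_1 and fell by 0.50 with siMEX3A_2, a tested difference of 0.97 (edgeR adjusted p = 7.05e-06).

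**Figure D5:**
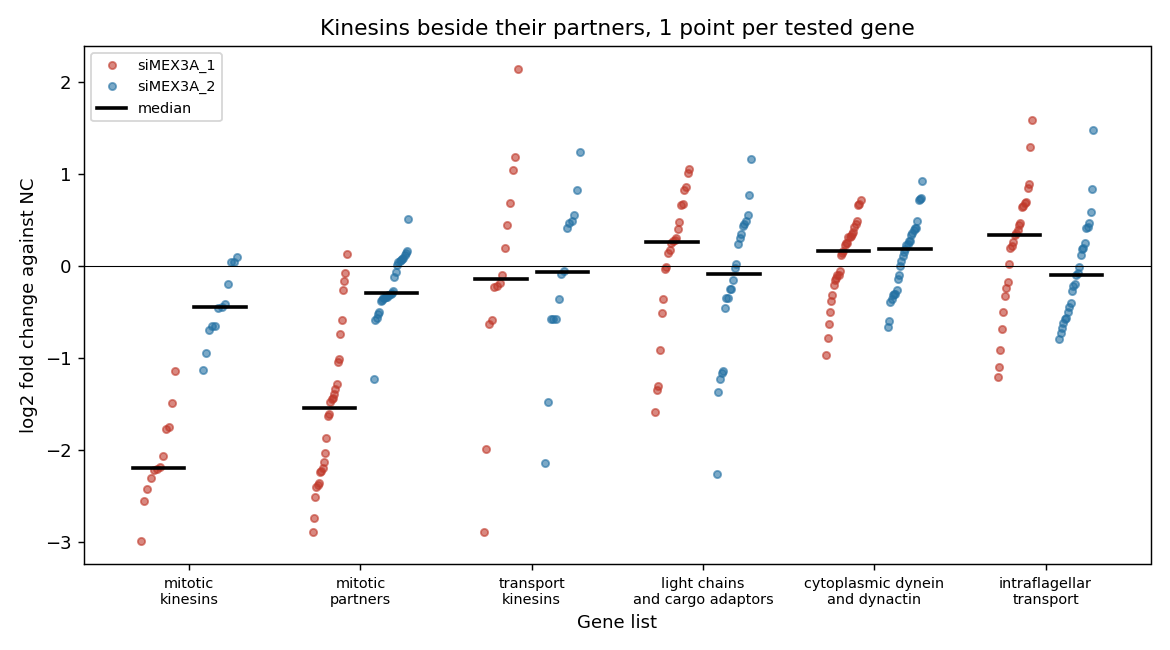
Log2 fold change against NC (y axis) of each tested gene in the mitotic and transport kinesins and in the 4 partner lists, siMEX3A_1 in red and siMEX3A_2 in blue, with medians as black bars. The medians of the mitotic kinesins (-2.20 and -0.45) and mitotic partners (-1.54 and -0.30) lie below 0 with both siRNAs, and those of the transport and ciliary lists lie between -0.14 and 0.34.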

How the data were processed

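Per the labels, messenger RNA libraries were made from ACHN cells and sequenced as single-end reads. The deposited values are estimated counts (expected counts) per gene, made by the authors; per the submitters' processing notes RSEM, STAR and the GRCh37 (hg19) build were named, without versions or roles. Whether counting used strand is not given in the sources used for this work. The authors' own comparison columns were not used.

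Expected counts were rounded to whole numbers. Libraries held 18825750 to 19158723 counts. Genes passing edgeR's filterByExpr (minimum count 10) were tested, 18583 in all, with edgeR 4.0.16 (R 4.3.3): TMM scaling, the quasi-likelihood test over all 6 libraries with group as the only term, and Benjamini-Hochberg adjustment over all tested genes. A gene was called at an adjusted p under 0.05. The biological coefficient of variation was 6.26%. A normalized count is the count scaled by TMM-adjusted library size, with the average size set to 1; CPM values use the same adjusted sizes. Each SE was derived from the quasi-likelihood F (absolute log2 fold change over its square root). The procedure was tested on simulated counts.

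The members, roles and partner lists were chosen with earlier results of these data known, so no test was run over a list. Named genes are all tested members, up to 3 genes by lowest p per comparison from each partner list, and MEX3A. Genes overlapping a member, CENPE, cell type markers and the partners said to be named after their values were seen fall outside this rule. Promoter windows came from the RefSeq table (GRCh38.p14); 34 of 42 members had an entry. Replicate pairs differed by more than counting noise (chi-square over degrees of freedom 2.39 to 5.62) and were kept as 2 libraries. In all, 13 alternatives were computed, DESeq2 1.42.0 among them.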

Additional observations from a re-analysis of the deposited data

How the results depend on the processing

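Over 13 alternatives (other scalings, filters, DESeq2, the replicate block, the compared groups alone, and each library left out), 1422 member values were computed. Of these, 1358 stayed on the same side of the threshold, 46 lost their call and 18 gained one. Among values called in either fit, 0 reversed direction. Uncalled values could change sign, as KIF2A did with siMEX3A_1 (-0.14 to 0.09). With a minimum mean of 50 counts the other kinesins called lower went from 5 to 3 (siMEX3A_1) and from 4 to 2 (siMEX3A_2), because low members were no longer tested. Leaving out 1 library each time gave 3 to 6 transport kinesins lower with siMEX3A_2 (6 with all libraries), 2 to 5 others higher with siMEX3A_2 (4 with all), and 1 to 3 others higher with siMEX3A_1 than with siMEX3A_2 (1 with all). An arm with 1 library was assumed to vary like the others. Replicate numbers were not used to pair the libraries in the main fit. Same-number deviations correlated at -0.11, 0.03 and -0.01 between groups, which with 2 libraries per group cannot exclude a shared batch. With the replicate block, members called were 28 (siMEX3A_1), 28 (siMEX3A_2) and 24 (between the siRNAs), against 30, 28 and 25 without it. Calls held under every alternative in which the gene was tested for 12 of 12 mitotic members with siMEX3A_1, 7 of 8 with siMEX3A_2 and 12 of 12 between the siRNAs. For transport members this was 8 of 10, 9 of 12 and 8 of 10, where KIF5A and KIF5C had 12 alternatives, being untested at a minimum mean of 50 counts. With scaling by library size alone the median over all genes shifted to -0.07 with siMEX3A_1. Depth limits the low members most: KIF5C had an SE of 0.45 with siMEX3A_1, against 0.07 for KIF11.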
